A study of Rattus norvegicus with 24 samples.

Results

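The 10 genes Gpnmb, Rraga, Rragc, Rragd, Flcn, Fnip1, Fnip2, Tfeb, Tfe3 and Mitf belong to an axis of lysosomal nutrient signalling, followed here in primary rat hepatocytes exposed to piperazine designer drugs. It joins a lysosomal glycoprotein, the Rag GTPases, the folliculin complex and the MiT/TFE transcription factors. These genes, out of 14217 named on the array, were measured by 17 of its 31042 probe sets, and all 17 are described. The group was chosen by the treated minus control differences of Gpnmb, Rragd and Flcn, which rose with all 4 drugs. Their treated minus control values are therefore given as a description, with no test, also where drugs are compared, while the other 7 genes carry the p-values of the fit over the whole array.

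The cells were rat hepatocytes held between layers of collagen, a culture form that keeps liver functions for longer. They were exposed for 24 h to 625 µM BZP, 35 µM TFMPP, 522 µM MeOPP or 467 µM MDBP, each the EC20 per the labels. BZP and MDBP are benzylpiperazines, and TFMPP and MeOPP are phenylpiperazines. Each drug had 3 treated samples, and each treated sample had a named control of its own with 0.1% DMSO, which gave 12 pairs and 24 arrays. The rat strain and age are not given in the sources used here. Since no label ties a sample to an animal or a separate culture, p-values here describe variation among these 24 samples, part or all of which may be technical.

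Values are log2 expression values made by robust multi-array averaging (RMA), and a difference of 1 is a doubling. Array medians lay between 4.45 and 4.52. The mean level of 9 hepatocyte marker genes lay between 12.29 and 12.73 on the DMSO arrays, and that of 16 Kupffer cell and leukocyte markers between 4.93 and 6.24. Single genes of the latter list differed widely, from 2.78 for Adgre1 to 9.35 for Lyz2 and 10.00 for Cd14 as means over all arrays. The 12 DMSO arrays fell into 5 sets of closely similar arrays, found from the data and not named in the labels. Set 1 held the first pair of every drug, set 2 the MeOPP, TFMPP and BZP pairs numbered 2, set 3 the BZP and MDBP pairs numbered 3, set 4 the MeOPP and TFMPP pairs numbered 3, and set 5 the MDBP pair numbered 2. BZP and MDBP thus have no pair in set 4, and TFMPP and MeOPP none in set 3.

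Rag GTPases work as heterodimers of RagA or RagB with RagC or RagD. On the lysosome surface they bring the kinase complex mTORC1 into contact with its activator when amino acids are plentiful. Folliculin with its partners FNIP1 and FNIP2 is the GTPase-activating protein for RagC and RagD, and the resulting Rag state lets mTORC1 phosphorylate TFEB and TFE3 and hold them in the cytoplasm. When that hold is released, MiT/TFE factors enter the nucleus and switch on lysosomal genes, among them Gpnmb, Flcn and Rragd themselves. In the liver GPNMB is best known from macrophages and as a protein that rises under lysosomal stress.

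Gpnmb encodes a transmembrane glycoprotein of late endosomes and lysosomes. On the 12 DMSO arrays it read 6.61 at the lowest, 7.30 at the median and 7.68 at the highest. On the 12 treated arrays it read 8.61, 9.60 and 10.06. Every treated array lay above every DMSO array. Over the 12 pairs the change was 2.30 ± 0.09 on the log2 scale (SE of the model), a 4.94-fold higher level. It was the largest rise among the 14217 genes.

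By drug, Gpnmb rose in its 3 pairs by 2.58, 2.76 and 2.69 with BZP. With MDBP the pair changes were 2.12, 2.98 and 2.81, and with MeOPP 2.69, 2.50 and 1.73. With TFMPP they were 1.81, 1.67 and 1.30. All TFMPP changes lay below all BZP and all MDBP changes, and they overlapped those of MeOPP. In order of the treated level, TFMPP stood at 8.83 ± 0.26 (SD, n = 3), MDBP at 9.59 ± 0.04, MeOPP at 9.75 ± 0.33 and BZP at 9.83 ± 0.14. The step from MDBP to MeOPP and that from MeOPP to BZP were smaller than the spread within MeOPP. The DMSO means ran from 6.95 to 7.45.

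The promoter of Gpnmb is shown because Gpnmb had the largest rise and holds a letter match to a motif of the MiT/TFE family. That motif is the M-box core, spelled TCATGTG and searched on both strands. In the RefSeq GRCr8 sequence at chr4:79340878-79341127 on the plus strand, the 250 bases before the start of the gene, it lies on the minus strand. It begins 22 bases before the start, and capitals mark it.
Gpnmb: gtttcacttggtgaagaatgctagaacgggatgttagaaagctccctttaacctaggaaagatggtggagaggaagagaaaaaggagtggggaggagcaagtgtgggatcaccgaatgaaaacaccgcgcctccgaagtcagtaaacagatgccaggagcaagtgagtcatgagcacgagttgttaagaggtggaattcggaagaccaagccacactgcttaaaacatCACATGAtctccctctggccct
Of 33469 rat promoters of this length, 3.07% hold TCATGTG. The match is a description of these letters, and binding was not measured.

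Among the Rag GTPase genes, Rragd and Rragc stood higher after every drug and Rraga did not differ detectably. Rragd encodes RagD. It read 2.96, 4.14 and 4.95 on the DMSO arrays (lowest, median, highest) and 5.03, 5.85 and 6.53 on the treated arrays. As for Gpnmb, every treated array lay above every DMSO array, though the gap between the groups was narrow. The change was 1.78 ± 0.12 (SE, n = 12 pairs), or 3.44-fold, the third largest rise among genes. Most DMSO values were below the array median, and no detection call was used here.

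Rragd changed by 2.27, 1.89 and 2.64 in the BZP pairs and by 2.30, 1.94 and 2.51 in the MDBP pairs. In the TFMPP pairs the changes were 1.93, 1.09 and 0.63, and in the MeOPP pairs 2.05, 1.58 and 0.58. The smallest change of TFMPP and that of MeOPP both came from set 4. Of the 3 members that chose the group, Rragd spread most between sets, from a mean change of 0.60 in set 4 to 2.58 in set 3. Gpnmb ran from 1.51 in set 4 to 2.98 in set 5, and Flcn from 0.69 to 1.04.

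Rragc encodes RagC, the close relative of RagD that folliculin also acts on. Its DMSO values were 8.31, 8.67 and 9.02 and its treated values 8.93, 9.18 and 9.60. Treated exceeded control in 12 of 12 pairs. Probe set 1371723_at rose by 0.55 ± 0.06 (SE; limma adjusted p = 2.95e-06) and 1382537_at by 0.60 ± 0.07 (limma adjusted p = 7.39e-06). The change was much alike across drugs, at 0.49 for TFMPP, 0.53 for MDBP, 0.58 for BZP and 0.59 for MeOPP, each with an adjusted p under 0.05 for 1371723_at. Probe set 1382537_at passed with BZP, MeOPP and MDBP but not with TFMPP (0.42, limma adjusted p = 0.163). Across the 5 sets the change of 1371723_at ran from 0.47 to 0.60.

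Rraga, which encodes RagA, read 9.63 to 10.61 on the DMSO arrays and 10.01 to 10.61 on the treated arrays. Its change was 0.05 ± 0.06 (limma adjusted p = 0.637), with 5 pairs higher and 7 lower. The 95% interval of the mean change was -0.08 to 0.17, below the mean change of Rragc, though it takes the 12 pairs as separate. By set the picture was uneven. The BZP and MDBP pairs of set 3 changed by 0.38 and 0.48, and the means of the other sets lay between -0.09 and 0.02.

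**Figure D1:**
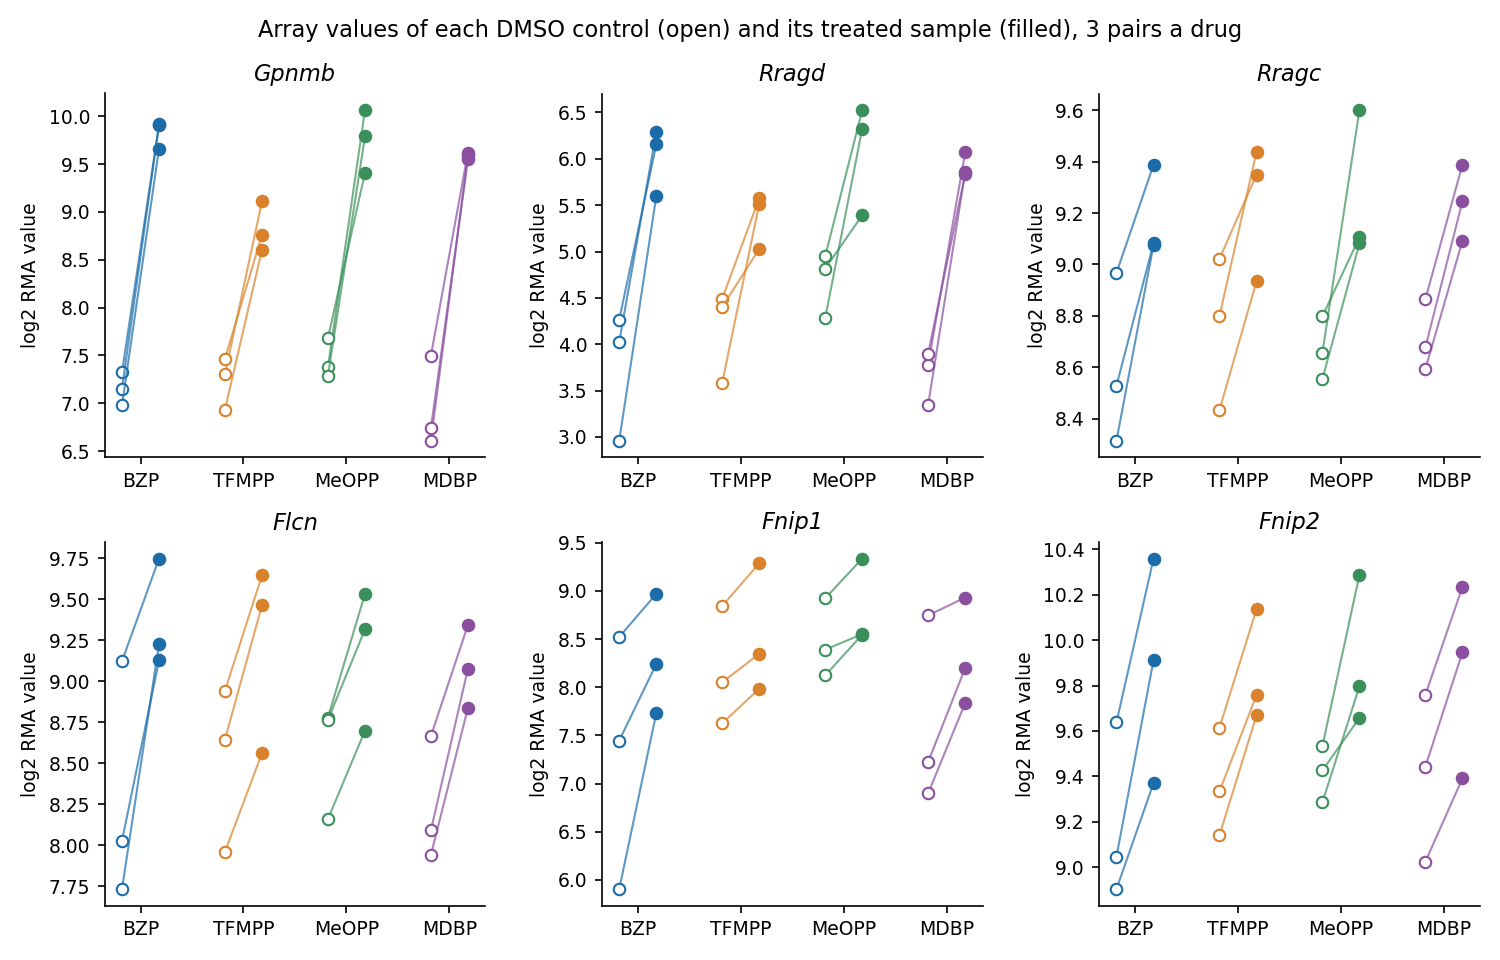
Log2 RMA value (vertical axis, scaled per gene) of each DMSO control (open circle) joined to its treated sample (filled circle), 3 pairs for each of the 4 drugs, for Gpnmb, Rragd, Rragc, Flcn, Fnip1 and Fnip2. Every line rises, and for Gpnmb and Rragd the lowest filled circle lies above the highest open one.

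All 3 genes of the folliculin complex stood higher after the drugs. Flcn encodes folliculin, the tumour suppressor of Birt-Hogg-Dubé syndrome. Its DMSO values were 7.73, 8.40 and 9.12 and its treated values 8.56, 9.27 and 9.75, so the groups overlapped and 8 of 12 treated arrays lay above the highest DMSO array. Within pairs the treated array was higher in 12 of 12, by 0.81 ± 0.06 (SE), or 1.76-fold, which ranked 56 among the rises of all genes. The BZP pairs changed by 0.63, 1.50 and 1.10, the TFMPP pairs by 0.71, 0.60 and 0.82, the MeOPP pairs by 0.75, 0.54 and 0.55, and the MDBP pairs by 0.68, 0.90 and 0.99. The SD of the DMSO arrays was 0.46 over all 12 and 0.18 within sets.

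Fnip1 and Fnip2 encode the folliculin-interacting proteins. Fnip2 probe set 1373986_at read 8.90 to 9.76 on the DMSO arrays and 9.37 to 10.36 on the treated arrays. It rose by 0.53 ± 0.05 (SE; limma adjusted p = 1.90e-06) and 1391315_at by 0.61 ± 0.09 (limma adjusted p = 7.07e-05), each in 12 of 12 pairs. The third probe set, 1380706_at, lay between 3.47 and 4.05 on all arrays and changed by -0.03 ± 0.06 (limma adjusted p = 0.82). By drug, 1373986_at rose by 0.45 with MDBP, 0.49 with TFMPP, 0.50 with MeOPP and 0.68 with BZP, all with adjusted p under 0.05, while 1391315_at passed with BZP alone.

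Fnip1 rose by 0.61 ± 0.10 on 1383894_at (SE; limma adjusted p = 0.00023) and by 0.65 ± 0.10 on 1374750_at (limma adjusted p = 0.000115), in 12 of 12 pairs on each. The DMSO arrays of 1383894_at read 5.90, 8.09 and 8.92 and the treated arrays 7.73, 8.45 and 9.34. The 2 lowest DMSO values, 5.90 and 6.90, were the controls of set 3. Their pairs changed by 1.83 with BZP and 0.94 with MDBP, and the second MDBP pair, the only pair of set 5, by 0.97. The other 9 pairs lay between 0.16 and 0.80. Without the pair terms the mean change of Fnip1 no longer passed (limma adjusted p = 0.269).

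The Fnip1 promoter is shown because it is the only other one of the 7 promoters found for these genes with a match to the motifs searched. The E-box CACGTG and the overlapping core of the lysosomal CLEAR motif, TCACGTG, were searched on both strands. In RefSeq GRCr8, chr10:39068214-39068463 on the plus strand, both begin 85 bases before the listed start, the CLEAR core on the minus strand. Capitals mark the bases that the pair of motifs covers.
Fnip1: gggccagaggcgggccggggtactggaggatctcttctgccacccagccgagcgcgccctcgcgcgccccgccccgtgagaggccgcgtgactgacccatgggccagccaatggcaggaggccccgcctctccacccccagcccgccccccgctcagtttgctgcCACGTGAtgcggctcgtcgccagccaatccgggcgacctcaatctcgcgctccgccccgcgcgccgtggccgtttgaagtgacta
CACGTG is found in 5.59% and TCACGTG in 2.79% of the 33469 promoters over the same 250 bases. None of the 3 motifs was found before the listed starts of Flcn, Fnip2, Tfeb, Tfe3 or Mitf, where the listed start can lie inside the gene, 292 bases from its edge for Flcn and 49141 bases for Tfeb.

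The transcripts of the MiT/TFE factors moved little. Tfeb, the main activator of lysosomal genes in many tissues, read 6.03 to 6.75 on the DMSO arrays and 6.07 to 6.35 on the treated arrays. It changed by -0.14 ± 0.06 (SE; limma adjusted p = 0.0773), with 9 of 12 pairs lower. It passed without the second BZP pair (limma adjusted p = 0.0382), without the third MeOPP pair (limma adjusted p = 0.0324) and with dim probe sets left out (limma adjusted p = 0.0463). Its set means ran from -0.39 in set 3 to 0.12 in set 4.

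Tfe3, which shares targets with Tfeb, rose by 0.26 ± 0.06 on 1388967_at (SE; limma adjusted p = 0.00367), in 12 of 12 pairs. The pair changes ran from 0.04 to 0.65. Its other probe sets, near the bottom of the scale at 2.52 to 3.26 and 2.22 to 2.94, changed by 0.14 (limma adjusted p = 0.131) and -0.06 (limma adjusted p = 0.543). With the 3 probe sets averaged, Tfe3 changed by 0.11 (limma adjusted p = 0.0612), and a fit that ignored the pairing gave an adjusted p of 0.0603.

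Mitf, the melanocyte and osteoclast factor, was not called in the mean of the drugs on either probe set, at 0.07 ± 0.09 (limma adjusted p = 0.642) and 0.01 ± 0.09 (limma adjusted p = 0.962). With BZP, 1393836_at rose by 0.65 (limma adjusted p = 0.0302), with pair changes of 0.09, 0.61 and 1.24, and 1377328_at by 0.35 (limma adjusted p = 0.247). The BZP call rested on pairs 2 and 3, with a limma adjusted p of 0.0932 without pair 2 and 0.344 without pair 3, whose control had the lowest value, 4.52. The MeOPP pairs of 1393836_at changed by -0.64, -0.05 and -0.24. All BZP changes thus lay above all MeOPP changes, by 0.95 on average (95% interval 0.42 to 1.49), but the difference did not pass over the array (limma adjusted p = 0.56). With the set added to the fit as a block it was 0.72. By set, the mean change of 1393836_at was 0.82 in set 3, which holds no MeOPP pair, and -0.36 to 0.18 elsewhere. The MDBP pair of set 3 rose by 0.40 on 1393836_at and 0.93 on 1377328_at. Both probe sets fell in the other MDBP pairs, 1393836_at by -0.23 and -0.36.

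**Figure D2:**
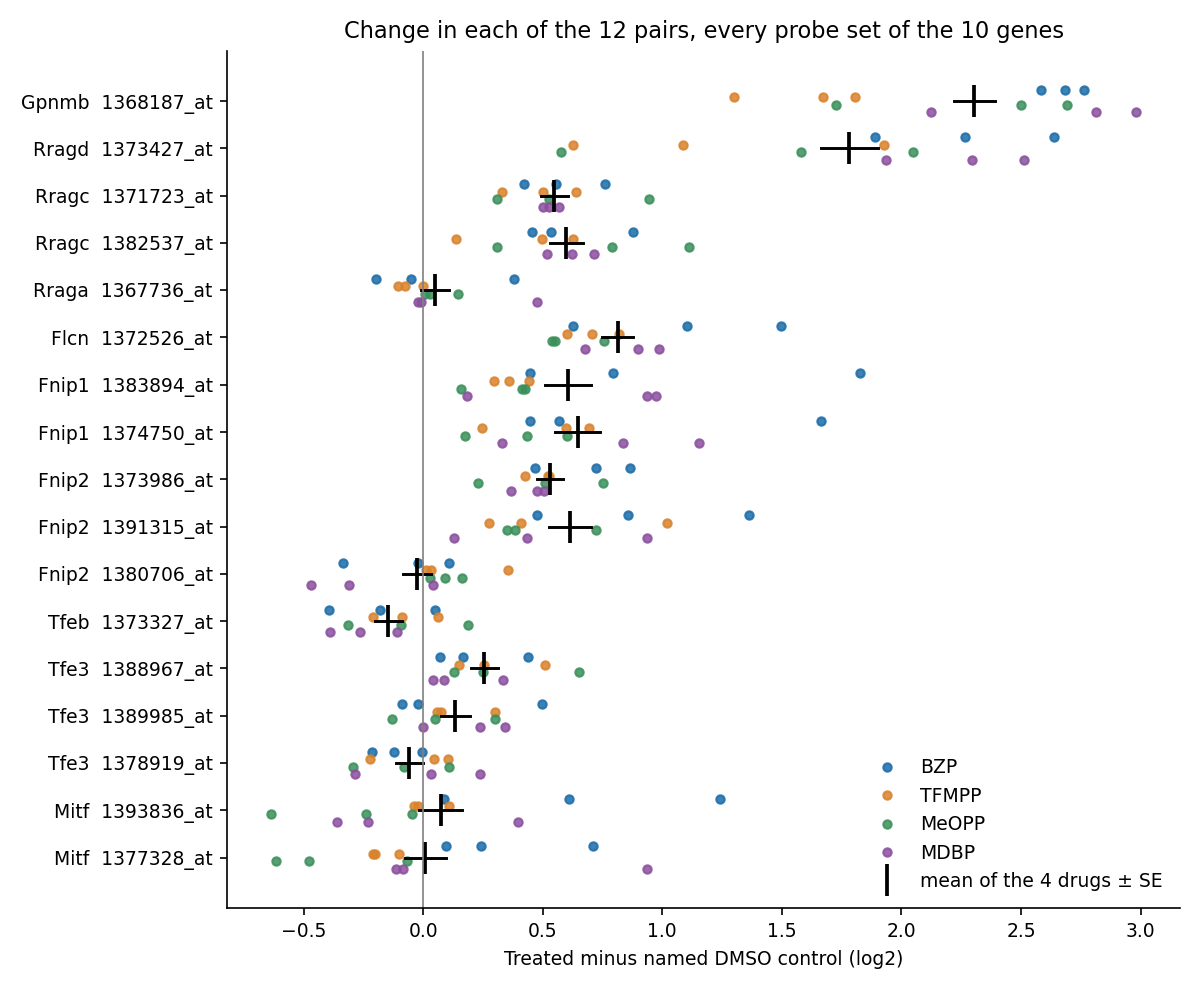
Treated minus named control on the log2 scale (horizontal axis) in each of the 12 pairs, coloured by drug, for the 17 probe sets of the 10 genes; black ticks and bars give the mean of the 4 drugs ± SE of the model. Gpnmb and Rragd lie furthest right, both probe sets of Rragc and Fnip1 lie right of 0 in every pair, and Rraga, Tfeb and Mitf scatter around 0.

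Counted by the brightest probe set of each gene, 4 of the 7 genes that did not choose the group (Rragc, Fnip1, Fnip2 and Tfe3) were called higher in the mean of the drugs, and none was called lower. Over all genes 18.0% were called higher and 11.9% lower. The same 4 were higher in 12 of 12 pairs, against 7.36% of all genes. None of the 7 had all treated arrays above all DMSO arrays, which held for 0.281% of all genes. Rragc and Fnip2 were called higher with each of the 4 drugs, as were 0.506% of all genes (72 of 14217).

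By drug, the called members of these 7 were Rragc, Fnip1, Fnip2 and Mitf with BZP, where 6.66% of all genes were called higher. With TFMPP they were Rragc and Fnip2 against 0.872% of all genes, and with MeOPP the same pair against 3.45%. With MDBP they were Rragc, Fnip1 and Fnip2 against 4.68%. Fnip1 changed by 1.02 with BZP, 0.70 with MDBP, 0.37 with TFMPP (limma adjusted p = 0.518) and 0.33 with MeOPP (limma adjusted p = 0.409).

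Several of these calls were lost when a pair was left out, in some cases whichever pair it was. With TFMPP, leaving out any pair took the adjusted p to 0.105 to 0.337 for Rragc and 0.132 to 0.185 for Fnip2. With MDBP, Fnip2 reached 0.065 to 0.117 on leaving out any pair, Rragc 0.0745 without pair 2 and 0.0576 without pair 3, and Fnip1 0.259 and 0.276 without the same pairs. With MeOPP, Rragc reached 0.0864 without pair 1, and Fnip2 0.141 without pair 1 and 0.0539 without pair 3. Without the pair terms no drug-wise call of Rragc, Fnip1, Fnip2 or Mitf was left, at adjusted p of 0.297 to 0.9999.

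Differences between drugs were tested for the 14 probe sets of the 7 other genes and 6 pairs of drugs, 84 tests in all. The molar concentrations differ, and the drugs share only the EC20 as a basis. None of the 84 passed over the whole array (limma). Of the 84, 9 had an unadjusted p under 0.05, or 10.7%, against 5.66% of the same tests over all probe sets. Most of them were on Mitf, and the rest on Fnip1 and the dim probe set of Fnip2, 1380706_at. Tests on the same gene or with a drug in common are not separate, so this share does not count genes. In the test for any difference among the drugs the unadjusted p was under 0.05 for 2 of the 14, both Mitf, and for 6.02% of all probe sets. Over the array, 0.0515% of probe sets were called different between BZP and TFMPP, and 0% in each of the other 5 comparisons and in the test for any difference.

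For Gpnmb the drugs are compared as a description. TFMPP gave the smallest change within each set that held it. In set 1 the changes were 2.58, 1.81, 2.69 and 2.12 for BZP, TFMPP, MeOPP and MDBP, in set 2 they were 2.76, 1.67 and 2.50 for the first 3, and in set 4 they were 1.30 for TFMPP and 1.73 for MeOPP. Over all pairs BZP exceeded TFMPP by 1.09, and with the set as a block by 0.77. TFMPP minus MeOPP was -0.71 either way. TFMPP minus MDBP was -1.05 over all pairs and -0.51 with the set as a block. MeOPP minus MDBP changed sign, from -0.33 to 0.20.

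For Rragd the mean changes over all pairs were larger with the benzylpiperazines, and this gap narrowed within sets. The treated means did not follow that order, at 6.08 for MeOPP, 6.01 for BZP, 5.92 for MDBP and 5.37 for TFMPP. Their DMSO means, drug by drug, were 4.68, 3.75, 3.67 and 4.16. In change, BZP exceeded TFMPP by 1.05 and MeOPP by 0.86, and with the set as a block by 0.52 and 0.33. TFMPP minus MDBP went from -1.03 to -0.43 and MeOPP minus MDBP from -0.85 to -0.24. In set 1 the 4 drugs gave 2.30 for MDBP, 2.27 for BZP, 2.05 for MeOPP and 1.93 for TFMPP. The 4 changes of Flcn in set 1 lay between 0.63 and 0.75.

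**Figure D3:**
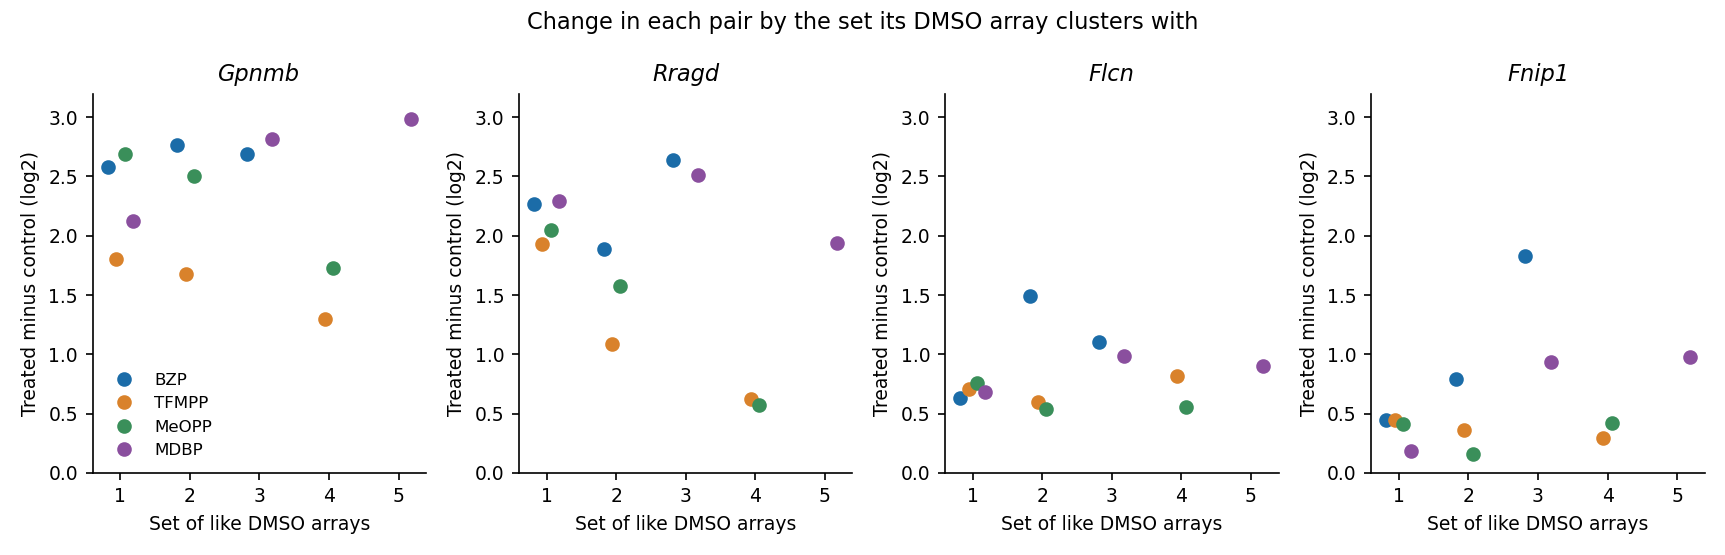
Treated minus control (log2, vertical axis) in each pair against the set of like DMSO arrays the pair belongs to (horizontal axis), for Gpnmb, Rragd, Flcn and Fnip1; colours mark the drugs. TFMPP is lowest in each set that holds it for Gpnmb, both Rragd values of set 4 lie near 0.6, and the highest Fnip1 value is the BZP pair of set 3.

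The rest of the pathway was read from lists of related genes, each by its brightest probe set, beside a median change over all genes of 0.01 and the 18.0% of all genes called higher and 11.9% called lower. A list of 7 genes held Rragb, Slc38a9 and the Lamtor genes of the scaffold that holds Rags on the lysosome. Rragb, which encodes RagB, and Lamtor1 were not measured. Of the 5 measured, 2 rose, Lamtor5 by 0.33 and Lamtor3 by 0.27. The upstream GATOR complexes and amino acid sensors had 1 of 16 higher and 1 lower. They were Itfg2, a GATOR1 anchor, at 0.21, and Sesn1, a leucine sensor of the sestrin family, at -0.36. Their median was 0.02.

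Of 12 genes of mTORC1 and its TSC brake, 6 rose and 1 fell, with a median of 0.14. Rhebl1, a relative of the mTORC1 activator Rheb, rose by 0.66 ± 0.05 (SE; limma adjusted p = 9.03e-08) and was called with each drug. Eif4ebp1, the translation repressor that mTORC1 phosphorylates, rose by 0.40 and Tsc1 by 0.29. Deptor, an mTOR inhibitor, changed by -0.50 ± 0.05 (limma adjusted p = 1.77e-06). Mtor and Rptor themselves changed by -0.07 (limma adjusted p = 0.382) and 0.00 (limma adjusted p = 0.994).

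Of the 7 subunits of AMPK, the energy sensor that binds the folliculin partners, the regulatory Prkab2 and Prkab1 rose by 0.33 and 0.20, and the catalytic Prkaa2 and Prkaa1 changed by -0.27 and -0.17. Among 15 genes that control MiT/TFE factors or belong to their family, 7 rose and none fell. They were led by Ywhaz (0.34) and Ywhab (0.28), 14-3-3 proteins that hold TFEB in the cytoplasm, and Xpo1 (0.29), its nuclear exporter. The calcium channel Mcoln1, which acts on TFEB through calcineurin, changed by 0.00 (limma adjusted p = 0.975).

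Lysosome and autophagy genes known as MiT/TFE targets showed many small rises. Of 25 measured, 15 rose and 1 fell, with a median of 0.23, where 18.0% of all genes were called higher and 11.9% lower. Pip4p1, a lysosomal phosphoinositide phosphatase, rose by 0.50 ± 0.05 (SE; limma adjusted p = 1.17e-06), the peptidase gene Tpp1 by 0.49 and the cathepsin gene Ctsf by 0.42. Ppargc1a, a coactivator of mitochondrial genes, changed by -0.39. By drug, 8 of the 25 were called higher with BZP, 5 with MDBP, 4 with MeOPP and 1 with TFMPP. The shares of all genes called higher ran in the same order, at 6.66%, 4.68%, 3.45% and 0.872%. None of the 25 reached the change of Flcn, but Flcn was chosen on its rise, so this sets no measure for the list.

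Of the paralogue Pmel, the receptors Gpnmb binds and its sheddase Adam10, 7 genes were measured. None was called higher or lower, and the largest change was 0.15 for Itgb1.

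Gpnmb is also a gene of lipid-laden macrophages, so markers of that state and of other liver cells were read. Of 12 genes of such macrophages, 6 rose, with Lgals3, a galectin, at 0.93 ± 0.07 (SE; limma adjusted p = 1.51e-07), Fabp5 at 0.50 and Cd68 at 0.45. Cd36 changed by -0.45 and Apoe by -0.19. Trem2, the receptor that defines this state, changed by -0.04 (limma adjusted p = 0.695). Its mean level was 4.47, about the median of all probe sets (4.5), so a flat value may reflect low signal. Of 16 Kupffer cell and leukocyte markers, none rose in the mean of the drugs and 9 fell, led by Clec4f (-0.48), Cd14 (-0.41) and Csf1r (-0.41), against 11.9% of all genes called lower. With BZP alone Cd163, a macrophage scavenger receptor, rose by 0.59 (limma adjusted p = 0.0104). The list mean was lower in 12 of 12 pairs, as were the means of the hepatocyte and stellate cell marker lists. The Kupffer cell and leukocyte mean ran from 4.93 to 6.24 on the DMSO arrays and from 4.58 to 6.00 on the treated arrays. In such bulk samples fewer cells of a type and less RNA per cell cannot be told apart.

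Of 9 stellate cell markers, 2 fell, Col3a1 (-0.68) and Rgs5 (-0.62), and no change was called among 5 sinusoidal endothelial or 4 cholangiocyte markers. Several of the latter were dim, with mean levels of 2.65 to 3.07 for Cftr, Krt7, Krt19 and Vwf. Kdr, Stab2 and Pecam1 lay at 5.00 to 5.34, Lyve1 at 7.38 and Epcam at 8.12. Of 9 hepatocyte markers, 5 fell, with Apob at -1.02, Cps1 at -0.37 and Tat at -0.28. Their mean ran from 11.94 to 12.57 on the treated arrays. The part of any change in cell makeup in the values of the 10 genes was not tested.

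**Figure D4:**
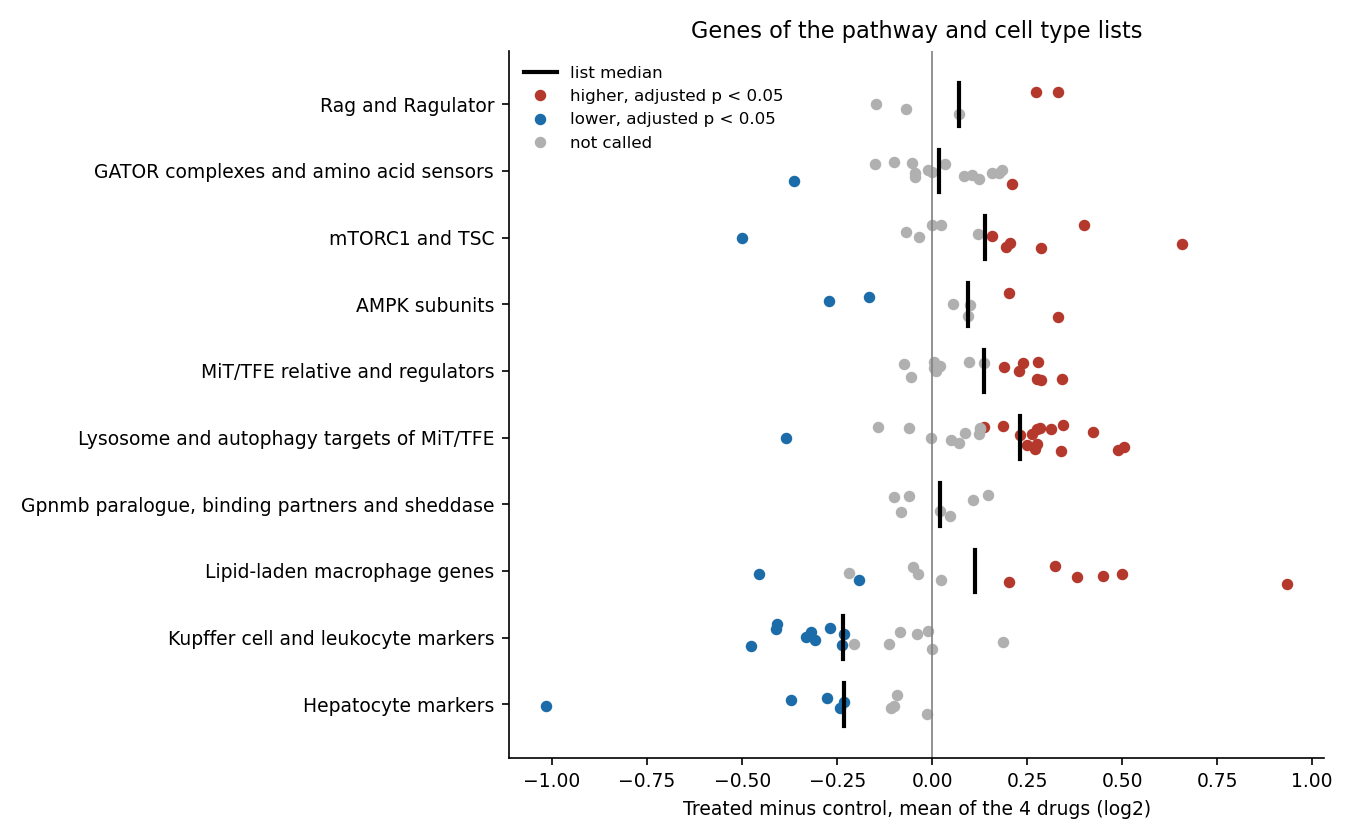
Treated minus control in the mean of the 4 drugs (log2, horizontal axis) for each measured gene of 10 lists; red and blue points are called higher and lower by limma, grey points are not called, and black bars are list medians. The median is 0.23 for the lysosome and autophagy targets, -0.23 for the Kupffer cell and leukocyte markers and also -0.23 for the hepatocyte markers.

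The genes whose pair changes ran most like those of Gpnmb, Rragd and Flcn were ranked by Pearson's r over the 12 pairs. The ranking was among 8608 genes of at least 5 on the log2 scale, except that Rragd, at a mean of 4.96, was kept. The pairs share sets and drugs, so r is a description. As measured, Gpnmb ran closest with Stk10 (r = 0.907), Cavin3, Anxa5, Papss1 and Anxa2, of which Anxa5 and Anxa2 encode annexins and had mean changes of 1.03 and 0.99. Rragd ran closest with Sv2b (0.912), Tpd52, Pggt1b, Atp6v1a and Vps50, where Atp6v1a is a subunit of the proton pump that acidifies lysosomes. Flcn ran closest with Urb1 (0.937), Gtf3c4, Derl1, Tbcel and Mnt.

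With the mean of each drug taken off, the closest were Zfp407 (0.935), Phldb2, Pdcd6ip, Ufd1 and Galc for Gpnmb, Poc5 (0.927), Faap24, Arhgef26, Tmx4 and Zfp878 for Rragd, and Cybc1 (0.942), Usp10, Pogk, Fbxw11 and Stk11ip for Flcn. No gene was named by both measures. Among the 10 genes, Gpnmb and Rragd had r of 0.588 after the drug means were taken off, and 0.534 or 0.35 without the 2 pairs farthest from the median of Gpnmb or of Rragd. Tfeb had r of -0.625 with Gpnmb and -0.741 with Rragd on the same measure. Without the 2 pairs farthest from the median these weakened to -0.328 and -0.629. Spearman's rho over all 12 pairs was -0.58 with Gpnmb and -0.769 with Rragd.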

How the data were processed

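Total RNA was labelled for an Affymetrix rat array. The authors deposited log2 values. RMA, named in the submitters' processing notes with no version, corrects background, normalizes quantiles and summarises probe sets. Of 31099 probe sets, 57 controls were left out. In GEO's platform annotation 20826 of the rest had 1 gene symbol, 436 had several and 9780 had none.

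All 24 arrays entered limma 3.58.1 (R 4.3.3) with 12 pair and 4 drug terms, leaving 8 residual degrees of freedom. Benjamini-Hochberg adjustment of two-sided p-values ran over 31042 probe sets, and adjusted p under 0.05 was called. Pairs came from the control titles. Treated and control deviations correlated at 0.612 to 0.802 in all 12 pairs. DMSO arrays correlating at 0.993 or more formed a set. The fit was tested on simulated data. Figures used matplotlib 3.10.9.

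Genes were represented by their brightest probe set. Named list genes were up to 3 called rises and 3 called falls with the largest changes, and a few more were chosen after their values were seen. The genes, lists and tests were chosen with earlier results of these data known. The lists held 159 genes, of which 142 were measured. The number of arrays limits precision. RefSeq promoter entries were found for 7 of the 10 genes.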

Additional observations from a re-analysis of the deposited data

How the results depend on the processing

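No change in direction was seen among called results. Probe sets called in the mean of the drugs numbered 6952, or 6002 to 6847 with a pair left out, 1927 with no replicate block (no pair terms) and 4346 from single values per set of DMSO arrays. Calls for BZP numbered 2867, or 1461 to 3053 with a pair left out, 38 without the pairing, 1063 on the arrays of BZP alone and 386 with the 12 DMSO arrays joined. Calls for TFMPP numbered 551, or 139 to 701, 1, 1092 and 20 under the same alternatives. Calls for MeOPP numbered 1865, or 819 to 2109 with a pair left out, 12 without the pairing and 796 with DMSO arrays joined. For MDBP these were 2167, 821 to 2530, 28 and 294. The test for any drug difference called 0, or 0 to 11 with a pair left out, with 11 without the first TFMPP pair and 2 without the second MeOPP pair.

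Of the tests of the 7 genes under alternatives, 354 kept their side of the threshold, 48 lost a call and 4 gained one. Of the values of Gpnmb, Rragd and Flcn, 165 moved by less than the spread between pairs and 4 by more, all with the DMSO arrays joined. Quantile normalization repeated on the deposited values, a trended robust prior and a minimum mean of 5 on the log2 scale were among the alternatives. The set as a block was added after the data were seen. Dim probe sets and 3 pairs a drug limit the rest.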
